A study of Conyza sumatrensis with 22 samples.

Results

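The 200 stable genes described here are the expressed leaf genes of the weed Conyza sumatrensis (Sumatran fleabane) whose level varied least from library to library. TPM, an abundance corrected for transcript length and scaled to the same total in every library, was summed over the transcript models of each of 45437 gene models and averaged over 22 libraries. The 200 genes of highest mean TPM were set aside, and among the following 4800, down to rank 5000, the 200 with the lowest coefficient of variation (CV, the standard deviation over the mean) were kept. The CV over all libraries chose them, so their levels, spreads and fold changes are descriptions and carry no test. The libraries are leaf RNA of 3 populations, of which R is labelled resistant to 2,4-D, a herbicide that mimics auxin, while S and T are labelled sensitive. Leaves were taken untreated (4 R, 3 S and 4 T libraries) or 5 h after a spray with 2,4-D (1005 g ai/ha) (3 R, 4 S and 4 T libraries). Whether libraries within a group represent different plants is not stated, so their spread may be partly technical. No group was sprayed without 2,4-D, and the resistant type is 1 population, so herbicide, spraying and sampling time cannot be told apart, nor can resistance and population.

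Genes of steady transcript level are the usual internal standards of expression work. In qPCR a target is read against them, and in RNA-seq most scaling methods assume that a majority of genes keeps its level. In plants the classical standards encode actins, tubulins, ubiquitin and its conjugating enzymes, elongation factors and glyceraldehyde-3-phosphate dehydrogenase. Auxins and auxinic herbicides alter the transcription of many genes within hours, so standards for such work have to be chosen among genes outside that response. Gene models carry running numbers without names, so the leaf markers could not be looked up, and whether the classical standards are among the stable genes is not given.

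Treated T libraries 3 and 4 stood apart in their deposited length columns. In the other 20 libraries the effective length of a transcript, which TPM divides by, was its length minus 236 to 265 bases, with decimals that differed by library. In these 2 it was the length minus exactly 250 bases. These offsets were read from transcripts over 1500 bases. Gene models of at most 300 bases took 23.2% and 20.7% of all TPM in these 2 libraries, against 7.38% to 9.65% in the others, while their share of reads was 0.91% and 0.739% against 0.444% to 0.655%. TPM sums to the same total in every library.

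Summed over the 200, TPM was 19904 and 20668 in treated T 3 and 4, against 21622 to 24203 in the other 20 libraries, with no overlap. The typical stable gene stood at 0.827 and 0.861 of its own mean there, and at 0.939 to 1.07 of it elsewhere. Of the 200 genes, 72 had their lowest value in treated T 3 and 27 in treated T 4. With TPM recomputed from the estimated counts and 1 shared effective length per transcript, the same ratios were 0.938 and 0.961, inside the range of the other libraries (0.921 to 1.06). Treated T held the lowest group mean of 85 stable genes with deposited TPM and of 48 with recomputed TPM. The rule applied to recomputed TPM kept 175 of the 200 genes. The 25 it dropped were short, with a median coding length of 657 bases, and the 25 it took in had a median of 1356 bases. Gene g19935 led that list, at 6.003%.

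The CV of the stable genes ran from 7.58% to 13.6%, with a median of 12.2%. The median of the other 4600 genes in the same rank window was 27.9%. Within a stable gene the highest library stood 1.30 to 2.11 times above the lowest, with a median ratio of 1.60. In 45 of the 200 this ratio was under 1.5, and in all but 1 it was under 2. Among the other genes of the window 598 of 4600, or 13%, stayed under 2. Mean levels of the stable genes spanned 29.2 to 741 TPM, nearly the whole window. They were 4.88% of the window's genes down to rank 1000, 5.6% at ranks 1001 to 2000 and 2.7% at ranks 4001 to 5000.

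**Figure D1:**
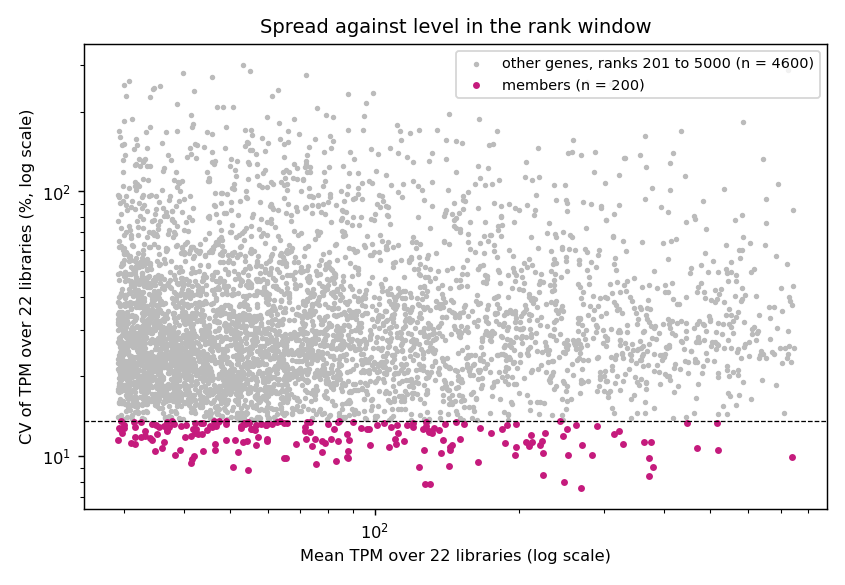
Each point is 1 of the 4800 genes of the rank window, with its mean TPM on the horizontal axis and its CV over 22 libraries in percent on the vertical axis, both on log scales. The 200 stable genes (pink) lie under the dashed line at 13.6% over the whole range of levels, 29.2 to 741 TPM.

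Gene g33473, with a coding length of 579 bases, had the lowest CV, 7.58%. It measured 264, 230.1, 279.8 and 282 TPM in untreated R and 293, 264 and 249 TPM in treated R. In S it measured 307, 271 and 304 TPM untreated and 289.9, 265, 282 and 281 TPM treated. In T it measured 240.5, 264, 261 and 247 TPM untreated and 244, 251, 266 and 269.5 TPM treated. In TPM untreated and treated libraries overlapped in every population, but those of T did not on the other scale given further below. The S means were the highest in TPM, at 294 ± 20.1 TPM (SD, n = 3) and 279.7 ± 10.3 TPM (n = 4).

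Gene g19935 (1071 bases) came next, at 7.83%. It measured 128, 128, 125 and 135 TPM in untreated R and 116, 133 and 127 TPM in treated R. In S it measured 114, 132 and 132 TPM untreated and 129, 125, 143 and 117 TPM treated. In T it measured 132, 144, 131 and 143 TPM untreated and 126, 129, 107 and 109.7 TPM treated. Its 2 lowest libraries were treated T 3 and 4. In TPM every treated T library lay below every untreated one, but not on the other scale given further below. Without those 2 libraries its CV was 6.30%, the lowest of all genes in the window.

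Genes g37979, g783 and g37798 completed the 5 steadiest, with CVs of 7.85%, 7.97% and 8.42% around means of 130.2, 248 and 372 TPM. Group means of g37979 lay between 123 ± 2.08 TPM in treated R (SD, n = 3) and 139.7 ± 2.78 TPM in untreated S (n = 3). Those of g783 lay between 235 ± 17 TPM in untreated T (n = 4) and 263 ± 13 TPM in treated R (n = 3). Those of g37798 lay between 349 ± 20 TPM in treated T and 408 ± 12.2 TPM in untreated T (n = 4 each). The libraries of these groups did not overlap in TPM, but did on the other scale given further below.

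**Figure D2:**
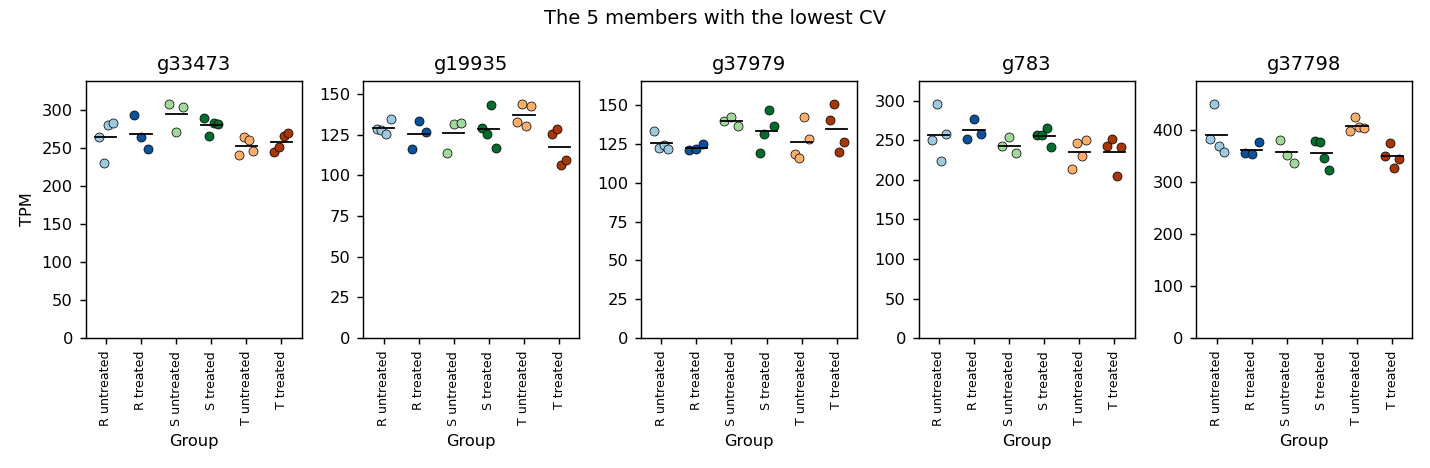
TPM of the 5 genes with the lowest CV, with a point for each library and a bar for the group mean, on axes that start at 0. Groups are populations R, S and T, untreated or 5 h after 2,4-D. The values of g33473 run from 230.1 to 307 TPM.

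At the other end of the list the choice was narrow. Genes g20749 and g38534, the last taken, had CVs of 13.58% and 13.61%, and g13683 and g39234, the first left out, had 13.62% and 13.65%. The edge of the list is thus a point on a continuous range. Gene g20749 was lowest in treated T libraries 3 and 4, at 53.1 and 63.8 TPM against 69.3 to 102 TPM elsewhere, and without them its CV was 9.25%. Estimated counts of g20749 and g38534 were not whole in any of the 22 libraries, so some reads were divided between transcripts. The share of such reads was not measured, and it adds an uncertainty of unknown size.

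Counting error was a small part of the spread. A stable gene had 330.3 to 17043 assigned reads per library on average, with a median of 1485. Reads drawn at random at those depths would give CVs of 0.766% to 5.5%, with a median of 2.6%. Counting error alone thus made up a median of 4.78% of a stable gene's variance over libraries, and at most 24%. A median of 41.5% of the sum of squares over libraries lay between the 6 groups. In the other genes of the window a median of 56.9% lay between groups. Some of the sum of squares lies between groups even where groups do not differ, so these shares are not all group difference. The rule chose on the spread over all groups, so nothing is read from the lower share.

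Whether such lists stay steady in libraries that had no part in their choice was read by leaving libraries out. A list of 200 genes chosen by the same rule from S and T libraries had a median CV of 12.9% in the 7 R libraries, against 22.3% for all genes of its rank window there. A list chosen without S had 11.2% in the 7 S libraries, against 20.8%. The list chosen without T had 15.9% in the 8 T libraries, against 21.3%. A list chosen from untreated libraries had 17.4% in the 11 treated ones, against 27.4%, and a list chosen from treated libraries had 13.1% in the 11 untreated ones, against 23.3%. Between 165 and 189 of the 200 genes of each list lay below the window's median in the left-out libraries. The untreated list had a CV of 8.87% where it was chosen, so its spread in treated leaves was the widest both in value and in change. The left-out T and treated libraries include treated T 3 and 4. With shared effective lengths the left-out values were 12.1% for R, 11.6% for S and 11.5% for T. They were 15.1% for treated and 12.6% for untreated libraries. These lists shared 88 to 120 genes with the 200 stable genes.

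**Figure D3:**
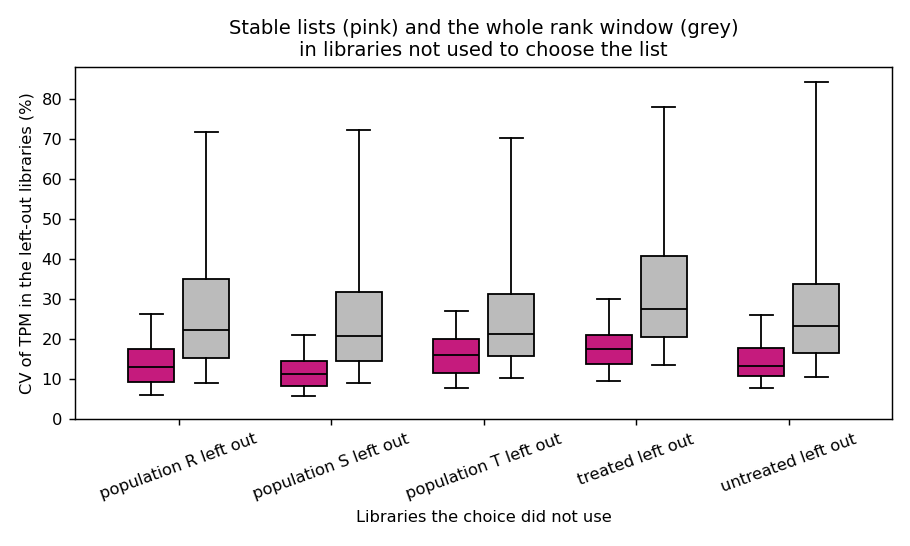
CV of TPM in percent in the libraries that the choice did not use, for lists of 200 genes chosen from the other libraries (pink) and for all genes of their rank window (grey). Boxes span the quartiles with the median as a line, and whiskers reach the 5th and 95th percentiles. In each case the stable list lies lower, with medians of 11.2% to 17.4% against 20.8% to 27.4%.

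The level also depended on how libraries were scaled. CPM is a read count scaled to the library's total without regard to length, and TMM scaling adjusts it on the assumption that most genes keep their level. On TMM-scaled CPM the stable genes had a median CV of 12.9%, and 1 of them reached 20.7%. By TMM-scaled CPM the 200 steadiest genes of the window had a median CV of 9.55% and shared 60 genes with the 200 chosen on TPM. Their median coding length was 1329 bases, against 913.5 for the stable genes. The typical stable gene stood at 0.905 to 0.938 of its own mean in untreated T on this scale. It stood at 1.01 and 1.00 in treated T 1 and 2, and at 1.11 in both treated T 3 and treated T 4, where deposited TPM had placed it lowest. In untreated R it stood at 0.929 to 1.07, in treated R at 0.891 to 0.987, in untreated S at 0.957 to 1.09 and in treated S at 0.999 to 1.08. Gene g33473 shows the gap between the scales. In TPM it measured 253 ± 11.2 in untreated T and 258 ± 11.9 in treated T (SD, n = 4 each), but in TMM-scaled CPM 115 ± 2.98 and 153 ± 32.1. The treated T values were 124, 127, 183 and 178 CPM, highest in libraries 3 and 4, and all lay above untreated T (112 to 118 CPM). Ranked by TMM-scaled CPM, g19935 and g37798 stayed among the 200 steadiest, at ranks 108 and 162, while g783, g37979 and g33473 were at ranks 462, 700 and 930.

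**Figure D4:**
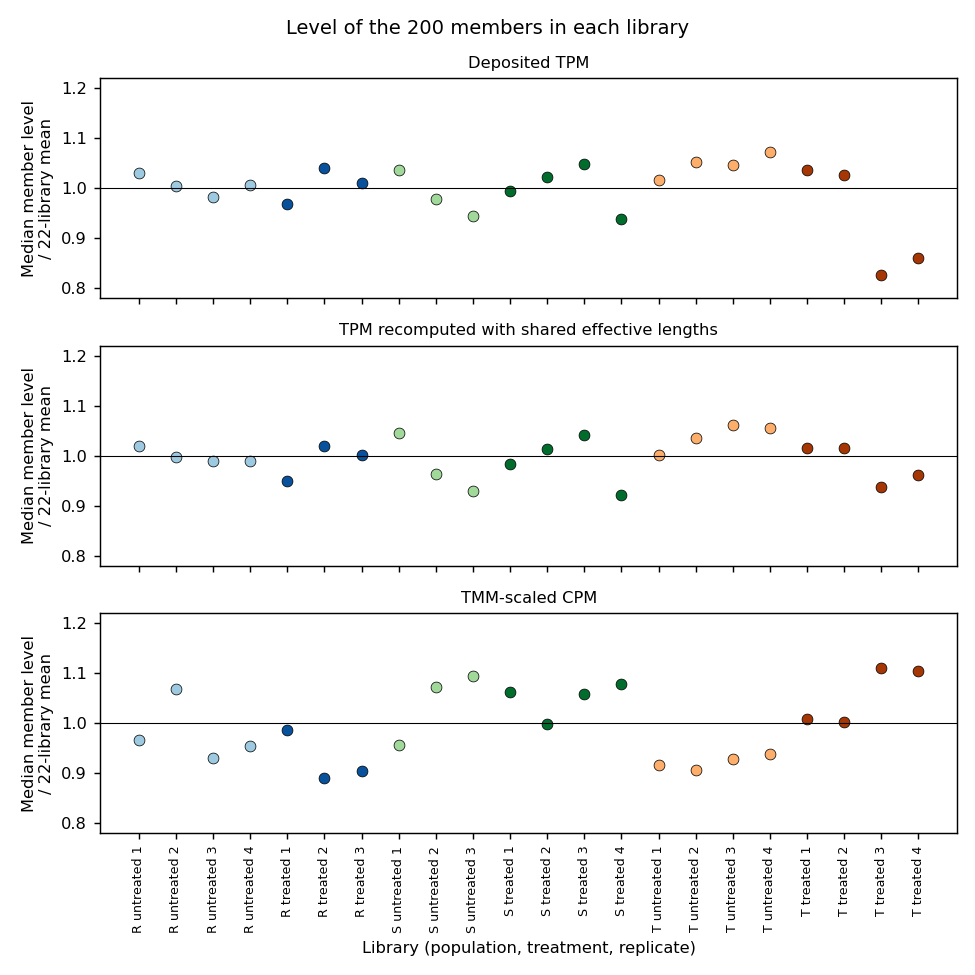
Median over the 200 stable genes of the level in a library divided by the gene's own mean over 22 libraries, for deposited TPM (top), TPM recomputed with shared effective lengths (middle) and TMM-scaled CPM (bottom). Each point is a library, coloured by group. Treated T 3 and 4 lie lowest at the top (0.827 and 0.861) and highest at the bottom (1.11).

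Differences between groups were read from estimated counts with edgeR's quasi-likelihood test, which passed all 200 stable genes through its filter on low counts. A gene was called at an adjusted p under 0.05 over all 22627 genes tested. Since all these libraries chose the stable genes, the counts describe the list and nothing is read from them. Of the 200, 148 were called in none of 9 contrasts and 52 in at least 1, where 60.8% of all genes tested were called in at least 1. The contrasts share libraries, and 22 stable genes were called in more than 1, where 39.6% of all genes were.

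Gene g21183 and gene g3486 fell in treated R within a low overall spread. Gene g21183 (417 bases, CV 10.8%) measured 111, 132, 119 and 104 TPM in untreated R and 77.7, 84.7 and 92.1 TPM in treated R. In the other 15 libraries it lay between 102 and 119 TPM, so the 3 treated R libraries were the lowest of all and did not overlap any group. On TMM-scaled CPM it fell in R by 0.51 on the log2 scale (SE 0.15, the standard error of the fit). In leaf RNA, fewer cells of a type and less RNA per cell cannot be told apart. Its means were 30.1 ± 4.8 CPM untreated (SD, n = 4) and 21.1 ± 1.05 CPM treated (n = 3). The call was lost without untreated R library 2, the highest, which gave -0.39, and without treated R library 1 (-0.53) or 2 (-0.47). The response of g21183 was lower in R than in T by a log2 difference of -0.90 (SE 0.20) on TMM-scaled counts. From group means of TPM the log2 ratio of treated to untreated was -0.46 in R and 0.02 in T, a difference of -0.48. That call was lost without treated T libraries 3 and 4 (-0.70).

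Gene g3486 (915 bases, CV 12.3%) measured 76.5, 76.1, 75.3 and 78.1 TPM in untreated R and 54.2, 64.7 and 61.9 TPM in treated R. In S it measured 73.7, 67.1 and 66.7 TPM untreated and 80.3, 88.6, 79 and 79.4 TPM treated. Treated libraries lay below untreated ones in R and above them in S, without overlap in either population. The difference of the responses, R minus S, was -0.67 on the log2 scale (SE 0.14). That call was lost in a fit with the replicate number as a block (-0.62). In the main fit g3486 was the only stable gene called in R minus S. This was 0.5% of the list against 3.61% of all genes tested, 1.97% higher and 1.64% lower. Treated T libraries of g3486 measured 70.0, 82.1, 58.5 and 64 TPM, and libraries 3 and 4 overlapped those of treated R. In TMM-scaled CPM treated T measured 70.0, 83.1, 81.6 and 85.3. Treated R measured 57.2, 57.2 and 57.4 on that scale, without overlap.

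In the response of R, 6 of the 200 were called and all were lower, where 16.4% of all genes tested were called, 9.37% higher and 7.03% lower. Besides g21183 they included g3486, at -0.44 (SE 0.10). Log2 fold changes (log2 of treated over untreated) of the stable genes ran from -0.51 to 0.34, and 149 of them were within 0.2 of no difference. In the response of S, 1 stable gene was called, g14418 (1767 bases), where 3.04% of all genes were, 2.58% higher and 0.46% lower. It rose by 0.35 on the log2 scale (SE 0.09), from 67.1 ± 2.21 CPM (SD, n = 3) to 85.5 ± 7.6 CPM (n = 4), with no overlap. The call of g14418 held under 9 of 29 alternatives, at 0.29 to 0.38 over those that left out a library.

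In the response of T, 12 stable genes were called and all were higher, where 10.8% of all genes were called, 5.72% higher and 5.06% lower. Over the 200 the median log2 fold change was 0.19, and 191 were above 0. This direction was seen on TMM scaling. In deposited TPM the mean summed level was lower in treated T, but only libraries 3 and 4 lay below untreated T. By library total, summed CPM of the stable genes was 22738 ± 996 in untreated T and 23073 ± 349 in treated T (SD, n = 4 each). Factors from the stable genes themselves set their summed counts equal, so a median near 0 follows from that choice. With such factors the median was -0.02 and none was called. Their summed TPM was 23609.6 ± 640.2 in untreated T and 21829 ± 1809 in treated T (SD, n = 4 each). Treated T 1 and 2, at 23394 and 23350, lay within the untreated T range of 22707 to 24203. With shared effective lengths the sums were 23616 ± 669 and 23048 ± 376, and the groups overlapped. Gene g29840 (924 bases) was the highest, at 0.53 (SE 0.16), a call that held under 20 of 29 alternatives. It measured 219, 205, 228 and 241 CPM in untreated T and 272, 315, 354 and 350.5 CPM in treated T, again highest in libraries 3 and 4. In TPM it measured 241 ± 15.1 and 271 ± 24.8 (SD, n = 4 each), and the groups overlapped, with treated T 3 at 250.0 TPM. Without treated T libraries 3 and 4 the median of the stable genes was 0.14, g29840 stood at 0.41 and was not called, and none of the 200 was called. Over all genes tested, the response of T went from 2439 to 485 called genes in that fit, which leaves 2 treated T libraries. The median log2 fold change in T was 0.30 for the 44 stable genes under 600 bases, 0.17 for the 120 of 600 to 1500 bases and 0.12 for the 36 longer ones. The other genes of the rank window showed medians of 0.30, 0.16 and 0.02 in the same classes.

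Before treatment, 29 stable genes were called between S and T, all higher in S, where 31.9% of all genes were called, 15.0% higher and 16.9% lower. This too was on TMM scaling. With factors from the stable genes, which set their summed counts equal, 2 were called higher and 4 lower. Summed TPM was lower in untreated S, at 22539 ± 967 (SD, n = 3), than in untreated T. Summed CPM by library total was higher in S, at 23162 ± 1018 against 22738 ± 996 (n = 4). Over the 200 the median log2 difference was 0.15. In lengths under 600, 600 to 1500 and over 1500 bases it was 0.17, 0.16 and 0.14. The other genes of the rank window showed 0.22, 0.18 and 0.07. Gene g21186 (471 bases) differed most, by a log2 fold change of 0.57 (SE 0.14), and this call held under all 29 alternatives. It measured 61.5, 85.9 and 71.9 CPM in untreated S and 39.4, 50.9, 53.4 and 53.3 CPM in untreated T, without overlap. In TPM the groups overlapped, at 194, 223 and 176 in S against 124, 167, 181 and 172 in T. Between untreated R and S, 15 stable genes were called, 2 higher in R and 13 lower, where 30.8% of all genes were called, 16.6% higher and 14.1% lower. Gene g21215 (828 bases), the lowest at -0.46 (SE 0.13), measured 45.2, 44.1, 43.7 and 45.5 TPM in R and 57, 55.9 and 57.6 TPM in S. These 7 libraries fell into separate narrow ranges on the TPM scale. The call was lost without untreated S library 3 (-0.38). Gene g14545 (1257 bases) was the highest there, at 0.32 (SE 0.11), a call that held under 21 of 29 alternatives. Between untreated R and T, 3 stable genes were called, all higher in R, where 14.7% of all genes were called, 7.77% higher and 6.97% lower. The first of them, g36275 (987 bases), stood at 0.31 (SE 0.10), and its call held under 14 of 29 alternatives.

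The responses of R and T were called different at 15 stable genes, all lower in R, where 8.47% of all genes were called, 3.94% higher and 4.53% lower. The median log2 difference of the stable genes was -0.27, with 191 of 200 below 0, and it was -0.19 without treated T libraries 3 and 4, when none was called. In that fit 142 genes were called over all those tested, against 1916. With all libraries the stable genes under 600, of 600 to 1500 and over 1500 bases had medians of -0.39, -0.25 and -0.19. The other genes of the rank window had medians of -0.36, -0.23 and -0.04 in the same classes. The responses of S and T were called different at none of the 200 by edgeR, where 0.053% of all genes were called, 0.0221% higher and 0.0309% lower. Before adjustment, 35 stable genes and 12.1% of all genes had an edgeR p under 0.05. DESeq2 called 3 stable genes and 1.58% of all genes. The median log2 difference of the 200 stable genes was -0.19 by edgeR. In the same length classes it was -0.29, -0.18 and -0.07, against -0.34, -0.11 and 0.09 in the other genes of the rank window.

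**Figure D5:**
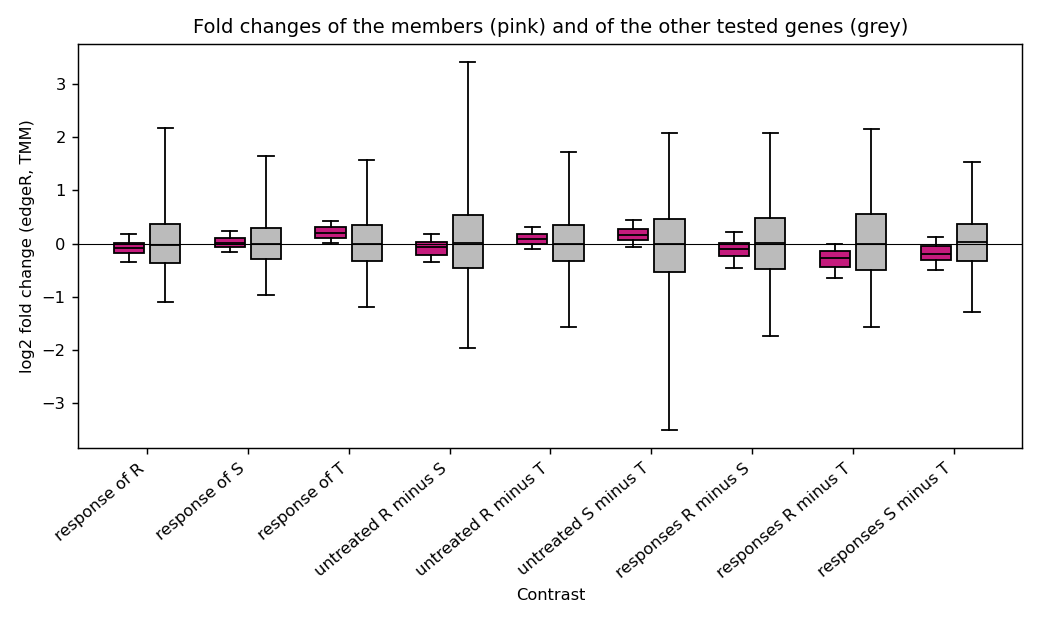
Log2 fold changes from edgeR with TMM scaling for the 200 stable genes (pink) and the other tested genes (grey) in 9 contrasts: the 3 responses to treatment, the 3 untreated population differences and the 3 differences of responses. Boxes span the quartiles with the median as a line, and whiskers reach the 5th and 95th percentiles. The stable genes are narrow throughout. Their medians sit off 0 in the response of T (0.19), in untreated S minus T (0.15) and in the responses of R minus T (-0.27) and S minus T (-0.19). The grey boxes hold all other tested genes, not only those of the rank window.

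These counts shifted with single libraries, and so did those over all genes tested. With 1 library left out, the genes called over the whole table ran from 2278 to 4553 in the response of R, from 376 to 865 in S and from 972 to 3614 in T. They ran from 5039 to 7454 between untreated R and S, from 2398 to 3629 between untreated R and T and from 5621 to 7665 between untreated S and T. For the differences of responses they ran from 302 to 1874 in R minus S and from 722 to 3595 in R minus T. The counts of stable genes follow. In R, the 6 became 1 without untreated R 2 or treated R 2 and 3 without treated R 1 or 3. In T, the 12 became 1 without treated T 3, 3 without untreated T 2, 5 without untreated T 1 or 3 or treated T 4, and 6 without untreated T 4. They became 21 without untreated R 2 and 24 without treated T 1. Between untreated S and T, the 29 became 16 and 11 without untreated S 2 and 3, and 18 without untreated T 1. Between untreated R and S, the 15 became 7 and 5 without untreated R 3 and 4, and 2 and 5 without untreated S 2 and 3. Between untreated R and T, the 3 became 0 without untreated R 2 or untreated T 2, 3 or 4, 1 without untreated R 4 or treated S 1, and 5 without untreated S 3. The single gene of R minus S became 2 without untreated R 1 or treated R 1, and 3 without untreated S 3. In R minus T, the 15 became 5 and 6 without untreated R 2 and 4, and 4 and 6 without treated R 2 and 3. They became 9, 5, 6 and 6 without untreated T 1 to 4, and 26, 4 and 4 without treated T 1, 3 and 4. The single count of S became 0 without any untreated S library, treated S 4, any untreated T library, treated T 1 or 3, untreated R 3 or 4, or treated R 2.

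Used as the scaling standard, the stable genes shifted some contrasts more than others. Factors that made their summed counts equal differed from TMM factors by ratios of 0.885 in treated R 3 to 1.15 in treated T 4. In the response of T the median log2 fold change of all genes tested then shifted from about 0 to -0.21. The 1294 genes called higher and 1145 lower became 897 and 2851. In the responses of R minus T the median shifted to 0.27, and 892 higher and 1024 lower became 1827 and 444. In the response of S 687 called genes (583 higher and 104 lower) became 616 (514 and 102). In the response of R 3710 (2120 and 1590) became 3371 (2204 and 1167). In the responses of R minus S 816 (445 and 371) became 802 (537 and 265). Between untreated R and T 3335 (1758 and 1577) became 3139 (1337 and 1802), so the larger side turned. Between untreated R and S 6961 (3767 and 3194) became 6612 (4106 and 2506). For untreated S minus T the median was -0.18, with 2290 genes higher and 4918 lower against 3399 and 3816. The stable genes themselves, relative to that standard, had medians of -0.02 in the response of T and -0.03 for untreated S minus T. Their calls between untreated R and S became 5 higher and 4 lower, and between untreated S and T 2 higher and 4 lower.

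Coding length enters the rule through TPM, which divides by effective length, whereas transcript models and the division of reads do not. Their coding lengths ran from 312 bases (g2076, at 518 TPM) to 5778 bases (g39697, at 29.2 TPM), with a median of 913.5 against 924 in the other 4600 genes. Lengths under 600 bases made up 22% against 28%, and lengths over 1500 bases 18% against 22.5%. Against the 4097 other genes with at least as many reads as the lowest stable gene, the direction for short genes turned: their median length was 1026 bases, and 19.2% were under 600 bases. Gene g39697 had the lowest mean level of the 200, and g14321 (423 bases) the highest, at 741 TPM. The longest gene g39697 measured 19.9 TPM in treated T 3 and 25.5 TPM in treated T 4, against 24.1 to 34.6 TPM elsewhere. More than 1 transcript model was listed for 5 stable genes, or 2.5%, against 4.2% of the others, and none of the 200 had 3 or more. Estimated counts were whole in every library for 63 stable genes, or 31.5%, against 35% of the others and 30.2% of those with at least as many reads. Estimated counts of 20 stable genes, or 10%, were not whole in any of the 22 libraries, against 7.22% of the others. A count that is not whole shows that some reads were divided between transcripts, but not how many. No test was run on these shares.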

How the data were processed

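Each of 22 libraries had 1 deposited table of 47916 transcript models. Per the file headers, the authors' tables give estimated counts (reads assigned to a transcript, which need not be whole), TPM and transcript lengths. Trimmomatic and Salmon are named in the submitters' processing notes, while for their versions, the reference and the strandedness the sources used here give nothing. For this reason antisense or overlapping genes cannot be told apart. Libraries held 19.2 to 24.4 M assigned reads. Samples were grouped by their titles. Estimated counts were rounded and summed per gene model, and deposited TPM was summed. Coding length is the deposited length of a gene's longest transcript model. That it is coding is inferred: it was a multiple of 3 in all 200 stable genes and in 4598 of the other 4600. The count test was edgeR 4.0.16 under R 4.3.3 (filterByExpr, TMM, robust quasi-likelihood, 1 mean for each of 6 groups, Benjamini-Hochberg over 22627 genes); SE is the log2 fold change over the square root of F. Scripts were tested on simulated data. Counts called whole were within 5e-04. Counting error refers to reads, which are not independent molecules. Stable genes and contrasts were chosen with earlier results of these data known. Genes are named by rule: the 5 lowest CVs, the 2 on each side of the threshold, the extremes of level and length, and the most raised and most lowered called gene of each contrast. Alternatives were other factors, no filter, DESeq2 1.42.0, a replicate block, other measures of spread and leaving out libraries; leaving out both treated T 3 and 4 and sharing effective lengths were added after seeing the data.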

Additional observations from a re-analysis of the deposited data

Results flagged for a closer look

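Outlying libraries were sought in groups of 4 libraries, for TPM of the named genes and for the summed level of the 200. Of 88 such groups 2 held a library whose gap to its nearest neighbour was large for the group's range, and chance gives about 1 in 20. Gene g3486 stood at 88.6 TPM in treated S 2, against 79 to 80.3 TPM in the other treated S libraries. The summed TMM-scaled CPM of the 200 was 22587 in treated S 2, against 24698 to 24926 in the others.

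In edgeR's main fit a difference of responses was called at g3486, at -0.67 on the log2 scale for R minus S. Another was called at g21183, at -0.90 for R minus T. The call of g3486 was lost with the replicate block (-0.62), and that of g21183 without treated T 3 and 4 (-0.70). From group means of TPM the 2 differences were -0.59 and -0.48. Both genes were chosen on these libraries for low overall spread, so these calls are descriptions and carry no test.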

How the results depend on the processing

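Leaving out 1 library kept 167 to 194 of the 200 genes, and the SD of log2 TPM kept 182. CPM by library total kept 135, CV of TMM-scaled CPM 60, the median absolute deviation over the median 109, and the pooled SD within groups over the mean 96. A window that ended at rank 2500 held fewer candidates and kept 112, and a window extended to lower-ranked genes kept 153. Without R, S or T the rule kept 114, 120 and 106, with untreated libraries alone 88 and with treated ones alone 105. The median CV was 10.7% without treated T 3 and 4, and 11.4% to 12.4% with 1 library left out. Chosen and measured on TMM-scaled CPM, lists had median CVs of 9.83%, 8.74% and 9.14% in left-out R, S and T, 12.3% in left-out treated and 10.02% in left-out untreated libraries, against window medians of 17.1% to 23.1%. With shared effective lengths the left-out T value was 11.5%. With 1 library left out, the values were 11.3% to 13.6% for R, 10.04% to 11.7% for S, 12.7% to 16.7% for T, 15.5% to 18.1% for treated and 12.3% to 13.6% for untreated libraries.

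Counts of called stable genes moved as follows, and the cause was not tested. Counts over all genes tested moved beyond 1.5-fold under 8 of 29 alternatives in T, 14 in R minus T and 12 in R minus S. For each of the 3 untreated contrasts they stayed within 1.5-fold under all 29. Shares over all genes are mostly not given for these settings, so no count is read as a trait of the stable genes. In R, 6 became 3 with factors from the stable genes, 2 without the low-count filter and 1 to 8 with a library left out. In S, 1 became 0 with RLE, upper-quartile or stable-gene factors, no filter, the replicate block, or without treated T 3 and 4, and was 0 to 1 with a library left out. In T, 12 became 0 with stable-gene factors and without treated T 3 and 4, 34 with DESeq2 and 1 to 24 with a library left out. Over all genes tested, 2439 became 3748 with stable-gene factors and 485 without treated T 3 and 4. Between untreated R and S, 15 became 9, 3, 8 and 23 with stable-gene factors, no filter, the replicate block and DESeq2, and 2 to 21 with a library left out. Between untreated R and T, 3 became 1 with upper-quartile factors, 0 with stable-gene factors, no filter or the block, 6 without treated T 3 and 4, 8 with DESeq2 and 0 to 5 with a library left out. Between untreated S and T, 29 became 6 with stable-gene factors, 19 without the filter and 11 to 41 with a library left out. In R minus S, 1 became 2 with upper-quartile factors, 0 with the block, 3 with DESeq2 and 1 to 3 with a library left out. In R minus T, 15 became 7, 3, 6, 4 and 0 with RLE factors, stable-gene factors, no filter, the block and without treated T 3 and 4, and 4 to 26 with a library left out. In S minus T, none became 3 with DESeq2, where 1.58% of all genes were called. None of the named fold changes changed direction under any of the 29 alternatives. Replicate numbers were not used to pair libraries in the main fit. Of 30 same-numbered pairs, 7 had deviations correlated above 0.1, with r from -0.42 to 0.27. Differently numbered pairs were not compared, so whether the numbers pair libraries was not tested. With the replicate block the response of T held 9 called stable genes.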
